A study of Mus musculus with 9 samples.

Results

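The regions described here were distal MyoD1 CUT and RUN peaks that hold the E-box CAGCTG and lack the AP-1 element TGACTCA. Peaks of the 6 deposited lists were merged where they overlapped or touched, which gave 58309 regions, and the 18774 regions called in at least 2 of the 6 libraries were kept. Of these, 5635 were distal, with a centre more than 10 kb from every annotated transcript start and off coding exons. The merged interval of 2403 distal regions held CAGCTG and no TGACTCA on either strand, and these 2403 members were 42.6% of the distal regions and 12.8% of all regions kept. The other distal regions held both motifs (2270), TGACTCA without CAGCTG (435) or neither (527).

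MyoD1 was mapped in C2C12, a mouse skeletal muscle myoblast line, with the anti-Flag antibody M2. All cells compared came from a single clonal line in which the Myod1 gene itself carries a 3xFlag-Halo tag and a transgene for 3xFlag-Halo-MyoD1 can be induced with doxycycline (dox) from a TRE3GS promoter, so the controls carried the tag and the transgene too. Cells of both groups were put into differentiation for 6 h, the 3 no dox libraries without dox and the 3 +dox libraries with dox added at its start. The comparison asks how binding at raised MyoD1 dosage differs from binding at the endogenous level. The 3 libraries of untagged wild-type cells were not analysed here, and peak lists hold no expression values against which the cell type could be checked. In a bulk library, binding in fewer cells and less binding per cell cannot be told apart.

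MyoD1 is a basic helix-loop-helix protein that binds E-boxes as a dimer with an E-protein and switches on muscle genes. The CAGCTG form is among those it prefers, and its symmetry means that either strand reads the same. AP-1 factors of the FOS and JUN families bind TGACTCA, which is common in distal enhancers of many cell types, so members were distal MyoD1 sites without an exact AP-1 element anywhere in the peak.

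The sequences below show stretches of members at the signal maximum, picked mainly for holding CAGCTG there. Of the 47 windows read for named members 23 held it and 24 did not. Each is 120 bases of the mm10 forward strand centred on the stretch where the highest peak of the region reached its maximum, with CAGCTG in capitals. The first 4 belong to the strongest members called in all 6 libraries and hold CAGCTG next to the maximum, and all but Gse1 hold a pair of sites.
Mical2, chr7:112336466-112336585: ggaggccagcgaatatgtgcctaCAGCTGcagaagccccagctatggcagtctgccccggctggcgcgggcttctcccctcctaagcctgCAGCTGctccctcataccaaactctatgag
Sept9, chr11:117296566-117296685: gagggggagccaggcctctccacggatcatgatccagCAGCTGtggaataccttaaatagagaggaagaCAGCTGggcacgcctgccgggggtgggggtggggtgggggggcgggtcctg
Gpc1, chr1:92787366-92787485: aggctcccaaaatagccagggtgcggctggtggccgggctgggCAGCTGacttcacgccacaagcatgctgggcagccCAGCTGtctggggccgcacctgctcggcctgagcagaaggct
Gse1, chr8:120416916-120417035: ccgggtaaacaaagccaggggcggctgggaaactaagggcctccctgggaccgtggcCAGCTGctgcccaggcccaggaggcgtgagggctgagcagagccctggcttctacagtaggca

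The next 5 lie near genes of muscle development, calcium handling, the sarcomere and membrane fusion. Mef2a and Runx1 are transcription factors of muscle and blood lineages, Jph2 is a junctophilin that ties the sarcoplasmic reticulum to the plasma membrane, Myom2 is an M-band protein of the sarcomere, and Myof is myoferlin, a membrane repair and fusion protein.
Mef2a, chr7:67462066-67462185: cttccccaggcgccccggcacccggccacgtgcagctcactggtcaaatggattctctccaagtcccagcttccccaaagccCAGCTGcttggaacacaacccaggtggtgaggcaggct
Runx1, chr16:92778366-92778485: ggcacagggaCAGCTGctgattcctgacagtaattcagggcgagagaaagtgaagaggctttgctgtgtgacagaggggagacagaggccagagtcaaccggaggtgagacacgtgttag
Jph2, chr2:163354016-163354135: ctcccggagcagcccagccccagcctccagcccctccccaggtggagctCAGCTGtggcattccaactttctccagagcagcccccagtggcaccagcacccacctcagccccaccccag
Myom2, chr8:15072916-15073035: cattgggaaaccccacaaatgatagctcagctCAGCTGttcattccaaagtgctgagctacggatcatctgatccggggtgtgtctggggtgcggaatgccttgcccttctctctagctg
Myof, chr19:38015616-38015735: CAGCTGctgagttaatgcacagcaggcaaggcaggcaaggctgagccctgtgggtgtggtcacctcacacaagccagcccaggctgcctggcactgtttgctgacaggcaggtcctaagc

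The next 2, near Ubash3b and Tmcc3, had a call in every +dox library and in no library without dox. The last, in an intron of Vgll4, is a strong member whose closest CAGCTG lay 445 bp from the maximum, so that the window shown holds none.
Ubash3b, chr9:41054316-41054435: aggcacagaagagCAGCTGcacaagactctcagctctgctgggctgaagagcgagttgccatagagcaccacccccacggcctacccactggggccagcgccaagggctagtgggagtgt
Tmcc3, chr10:94458766-94458885: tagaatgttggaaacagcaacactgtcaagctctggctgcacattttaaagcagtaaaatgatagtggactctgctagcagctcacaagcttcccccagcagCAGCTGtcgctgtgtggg
Vgll4, chr6:114889166-114889285: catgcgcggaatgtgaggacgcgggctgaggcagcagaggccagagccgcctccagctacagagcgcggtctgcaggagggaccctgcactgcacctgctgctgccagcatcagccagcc

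The libraries differed in depth and list length in a way that touches every call. Depth ran from 2868000 to 8030000 alignments and list length from 9389 to 53661 peaks, with +dox replicate 3 the highest in each. The lowest total signal in a list was 354 and 336 in the replicates numbered 3 and between 837 and 904 in the other 4, so both libraries numbered 3 stood apart from the rest. Members called only in these 2 libraries numbered 532, or 22.1% of members, against 23.2% of the other distal regions. Of the members, 1234 (51.4%) had a call in at least 2 of the 4 libraries numbered 1 and 2, beside 50% of the other distal regions. The values without the replicates numbered 3 therefore stand beside the results that turned on them.

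In most members CAGCTG lay close to the signal maximum. The rule asked for it anywhere in an interval with a median width of 1300 bp, and its place within the interval was not used. In 1541 of 2403 members (64.1%, 95% Wilson interval 62.2 to 66.0) the centre of a CAGCTG lay within 100 bp of the maximum, and in 1046 (43.5%) it lay within 50 bp. The median distance from the maximum to the closest site was 61 bp. Site density was 5.37 and 5.08 sites per kb and member in the 50-bp bins on either side of the maximum, and 0.558 and 0.666 in the bins that end 1 kb away. Those outer bins lay beyond the interval of many members, where the rule asked for no site. Part of this contrast is therefore set by the rule. The intervals on shares of regions cover counting error only.

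**Figure D1:**
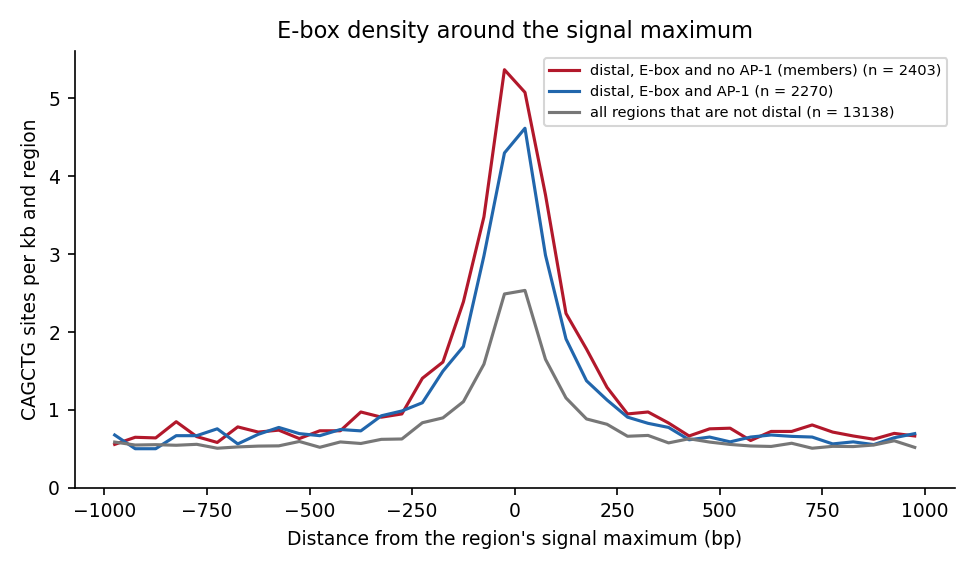
CAGCTG sites per kb and region (vertical axis) in 50-bp bins by distance from the signal maximum (horizontal axis, bp), for the 2403 members (red), the 2270 distal regions with both motifs (blue) and the 13138 kept regions that are neither distal nor mitochondrial (grey). All 3 lines peak at the maximum, the members at 5.37 sites per kb. The rule asked for CAGCTG in the red and blue regions and not in the grey ones, so the height of red and blue over grey is partly set by it.

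The share differed between libraries when each library's own peaks were used. CAGCTG lay within 100 bp of the maximum in 70.3%, 61.5% and 50% of the member peaks of no dox replicates 1, 2 and 3, and with dox in 66.2%, 67.7% and 64.4%. No dox replicate 3 was the lowest, and the groups overlapped. The difference of 5.52 percentage points between the group means, 60.6% ± 10.2 without dox and 66.1% ± 1.63 with dox (SD, n = 3 each), was within the spread between replicates (two-sided exact permutation test, p = 0.5, or 0.591 when adjusted over 13 tests). It was 1.36 without no dox replicate 3, 10.4 without no dox replicate 1 and 0.109 with the libraries numbered 1 and 2. With 3 against 3 libraries that test cannot give a p under 0.1.

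The share with CAGCTG at the maximum was above that of distal regions with both motifs in 6 of 6 libraries, but not past the correction for multiple tests. Among the regions with both motifs, 58.5% (56.4 to 60.5) had it within 100 bp, with a median distance of 71 bp. Per library the members' share was above theirs by 3.79 to 9.47 percentage points, with a mean of 6.53 ± 2.40 (SD, n = 6). The exact two-sided sign-flip permutation test over libraries gave p = 0.031, the smallest that 6 libraries allow, and 0.0812 after adjustment over the 13 tests, so the difference did not pass the correction, which no test in the family could have done with 6 libraries. When motifs were searched within 200 bp of the maximum in place of the whole interval the difference was 0.615. Merged intervals were narrower for members, at a median of 1300 bp against 1450 bp, and in regions of 500 to 1500 bp the difference was 5.44.

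Peaks of members with more CAGCTG sites at the maximum were higher. This comparison was added after the data had been seen. Height is given as the percentile of maximum signal within the library's own list, so that 100 marks its highest peak. Without dox, the median percentile of member peaks with 0, 1 and at least 2 sites within 100 bp of the maximum was 48.5, 61.5 and 70.2 in replicate 1, 51.0, 64.3 and 72.2 in replicate 2, and 47.9, 66.0 and 70.0 in replicate 3. With dox it was 45.3, 58.4 and 60.8 in replicate 1, 42.4, 57.6 and 64.4 in replicate 2, and 78.5, 85.6 and 88.9 in replicate 3. The order was the same in 6 of 6 libraries, and the third +dox library lay above the other 5 throughout.

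With 1 site in place of 0 the median was higher by 13.3 ± 3.61 percentile points, and with at least 2 sites in place of 1 by 5.51 ± 2.60 (SD, n = 6 libraries each). Each step gave an exact two-sided sign-flip permutation p of 0.031, the smallest possible, and 0.031 when adjusted over the 2 steps. That adjusted value rests on the small size of this added family. In the planned family of 13 tests the same sign-flip p adjusted to 0.0812, so the steps are not better supported than those differences. Among the members called in all 6 libraries the first step was 5.36 points (exact sign-flip permutation p = 0.0625) and the second 2.52. With height taken from the total signal of a peak the first step was 6.95. The second step was 1.27 points with a window of 50 bp (exact sign-flip permutation p = 0.25), and without +dox replicate 3 it was 3.70 (exact sign-flip permutation p = 0.125).

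**Figure D2:**
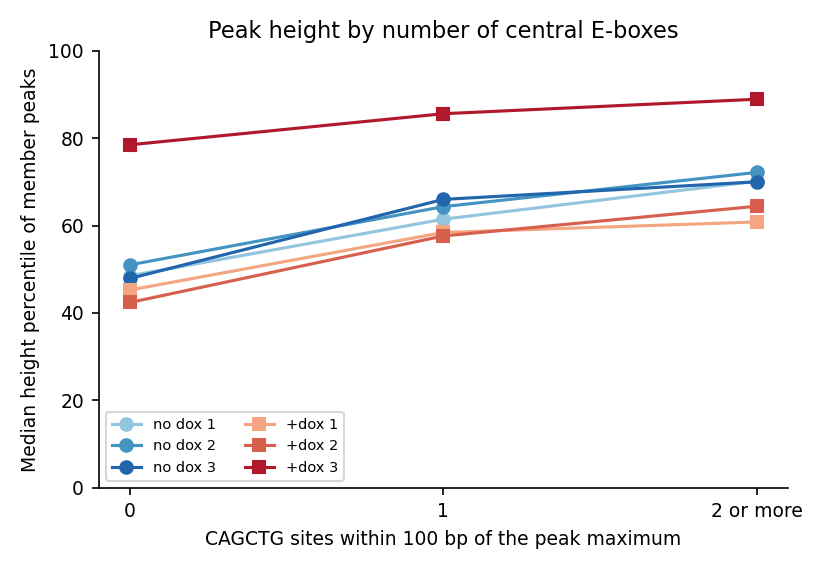
Median height percentile of member peaks within the library's list (vertical axis) against the number of CAGCTG sites within 100 bp of the peak maximum (horizontal axis), 1 line per library, no dox in blue and +dox in red. All 6 lines go up from 0 sites to at least 2.

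Within the whole merged interval, 876 members held 1 CAGCTG, 764 held 2, 452 held 3 and 311 held at least 4. In 7 members there were over 20, which were singled out after their values were seen. The highest number was 67 sites in the 3500 bp of chr1:151799851-151803350, 46141 bp from the closest start of Edem3, a mannosidase-like protein of the endoplasmic reticulum. A member of 2150 bp near Kdm6b, a histone demethylase gene, held 21 sites and was the only 1 of the 7 called in all 6 libraries.

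The bases next to CAGCTG differed between sites at the maximum and sites far from it. Over members, 2134 sites lay within 100 bp of the maximum and 1856 lay more than 300 bp away, with a site and its reverse complement counted together. The pair A before and C after the site made up 23.1% (21.4 to 24.99) of the central sites and 14.2% (12.7 to 15.9) of the far ones. The pair G before and C after made up 14.4% (13.0 to 15.9) against 7.44% (6.33 to 8.72). In the other direction, T before and A after made up 0.562% (0.322 to 0.980) of the central sites and 4.15% (3.33 to 5.15) of the far ones, and C before and A after 3.61% (2.90 to 4.49) against 8.41% (7.23 to 9.76). C before and C after did not separate, at 15.8% and 15.7%. These are 95% Wilson intervals over sites, and sites of the same member are not independent. The far shares of the first 4 pairs were 14.3%, 7.87%, 4.45% and 9.02% without the 7 members with over 20 sites.

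Other motifs within 100 bp of the maximum were counted as exact letters on either strand. TGTGGT, a core of RUNX sites, was present in 24.7% of members, against 16.2% of all kept regions with a window of the same length. GGAATG, the core bound by TEAD factors, was present in 16.1% against 12.5%, TGTCAG, bound by MEIS and TGIF factors, in 19.1% against 14.1%, and TTGGCA, an NFI half-site, in 18.2% against 12.6%. GGGCGG, common in CpG-rich promoters, was present in 11.4% against 33.0%. Among distal regions with both motifs the shares of these 5 were, in the same order, 23.7%, 17.1%, 18.9%, 16.7% and 8.46%. CAGATG was present in 23.0% of members and CAGGTG in 20.6%, against 16.8% and 19.3% of all kept regions. Distal regions with TGACTCA alone held CAGATG in 31.0% and CAGGTG in 29.2%, those with neither motif in 26.0% and 24.9%, and those with both in 23.7% and 19.6%, so that members were not high among distal regions. A match is a description of these letters and not a bound site.

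Members lay mostly in introns and between genes. The centre was intronic in 1349 members (56.1%), intergenic in 997 (41.5%), in an untranslated exon of a coding transcript in 47 and in an exon of a non-coding transcript in 10. The median distance to the closest transcript start was 23932 bp, with quartiles at 15490 bp and 38876 bp, and the farthest was 466671 bp. Just inside the limit the closest member lay at 10001 bp and just outside the closest excluded region lay at 9989 bp. In 284 members (11.8%) some base of the interval touched a coding exon although the centre did not. A further 7851 regions met every other condition and were called in 1 library, which was +dox replicate 3 for 90.5% of them.

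The number of libraries that called a member ran from 2 to 6. There were 973 members called in 2 libraries, 383 in 3, 268 in 4, 257 in 5 and 522 in all 6. In the same order these were 40.5%, 15.9%, 11.2%, 10.7% and 21.7% of members. Among the other distal regions the shares were close, at 39.9%, 16.2%, 10.5%, 10.2% and 23.2%. Of all kept regions 25.8% were called in all 6. CAGCTG lay within 100 bp of the maximum in 58.9% (55.8 to 61.9) of those called in 2 libraries and in 72.8% (68.8 to 76.4) of those called in all 6, where the merged interval was wider, at a median of 1650 bp against 1150 bp. Among members called only in the 2 libraries numbered 3 the share was 53.2% (48.9 to 57.4).

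The share of members called in a library was lowest in the shortest list and highest in the longest. In no dox replicates 1, 2 and 3, 36.2%, 55.7% and 68.2% of members were called, and in the +dox replicates 42.5%, 55.9% and 98.8%. The last value is that of the longest list, and the groups overlapped. The mean was 53.3% ± 16.1 without dox and 65.7% ± 29.4 with dox (SD, n = 3 each), a difference of 12.4 percentage points (two-sided exact permutation test, p = 0.6, adjusted p = 0.65). Leaving out 1 library at a time gave 1.44 (without +dox replicate 3) to 23.2 (without +dox replicate 1), with 3.57 without no dox replicate 1, and the difference was 0.296 with every list cut to its top 9389 peaks. A region became a member through calls in these same lists, so the share called and its test are not independent of the rule. Calls in 2 +dox libraries alone admitted 235 members (9.78%, beside 9.83% of all kept regions). Calls in 2 no dox libraries alone admitted 14 (0.583%, beside 0.650%).

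Members made up nearly the same part of the distal calls in every library. Their share of all distal regions called was 41.8%, 43.4% and 40.9% in no dox replicates 1, 2 and 3 and 42.7%, 43.2% and 42.6% in the +dox replicates. The means were 42.0% ± 1.24 and 42.9% ± 0.332 (SD, n = 3 each), and the difference of 0.815 points was within the spread of the no dox replicates (two-sided exact permutation test, p = 0.4, adjusted p = 0.578). The change in the share called with dox was 1.96 points larger for members than for all other distal regions, and the test of that difference itself gave an exact two-sided permutation p of 0.5 (adjusted p = 0.591). In the libraries numbered 1 and 2 alone it was -0.964. The shares in these tests rest on the calls that the rule used, for members and other distal regions alike.

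The share of members called lay between that of distal regions with both motifs and that of regions with neither, without passing the correction for multiple tests. Against the regions with both motifs the share called was 0.678 to 10.3 points lower in 6 of 6 libraries, with a mean difference of -4.61 ± 3.44 (SD, n = 6; exact two-sided sign-flip permutation p = 0.031, adjusted p = 0.0812). The difference was -1.13 with lists of equal length and -2.19 among regions of 500 to 1500 bp. Against regions with neither motif it was 10.8 ± 4.30 points and positive in 6 of 6 libraries (exact sign-flip permutation p = 0.031, adjusted p = 0.0812). In regions of 500 to 1500 bp it was 5.72. Against regions with TGACTCA alone it was 6.93 ± 5.79 points and positive in 5 of 6 (exact sign-flip permutation p = 0.0938, adjusted p = 0.203), and 3.35 in regions of 500 to 1500 bp. None of the 3 passed the correction, and a region of any class had to be called in 2 libraries to be counted. The motifs that set the class were searched over the merged interval. In members that interval was wider with more calls, at a median of 1650 bp for 6 libraries against 1150 bp for 2. Class and share called are therefore not independent, and these tests cannot separate the motifs from the width.

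**Figure D3:**
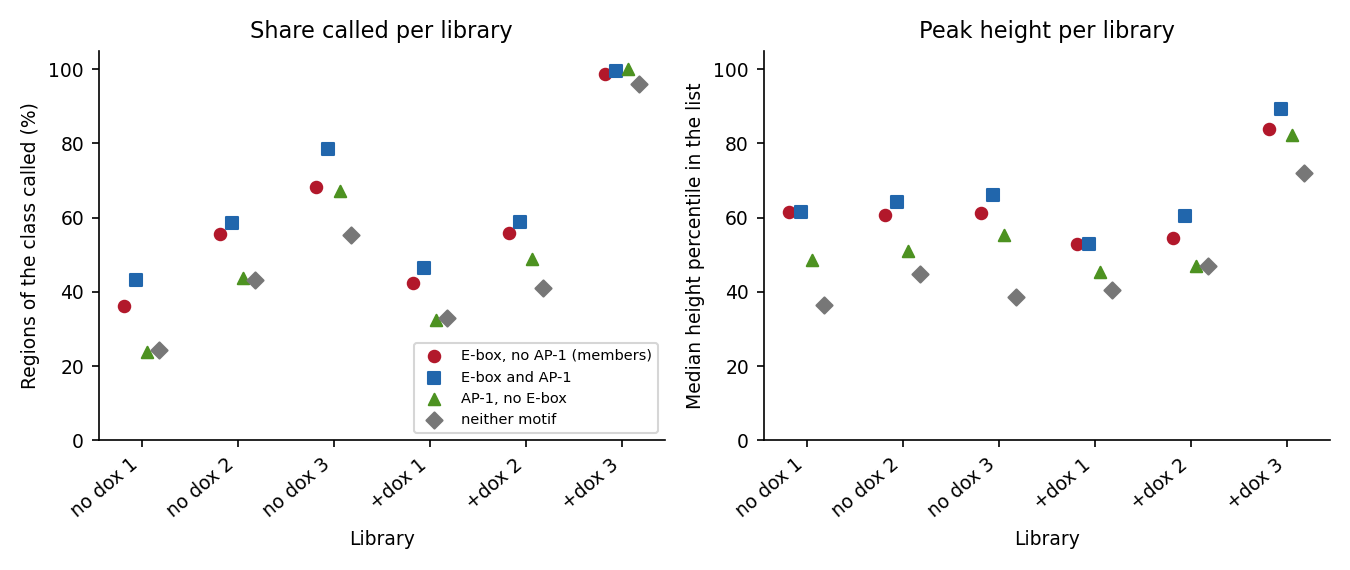
Share of the regions of each distal class called in a library (left, percent) and median height percentile of their peaks within that library's list (right), for the 6 libraries on the horizontal axes. Points are the members (red circles), regions with both motifs (blue squares), with AP-1 alone (green triangles) and with neither (grey diamonds), and +dox replicate 3 is the highest in both.

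Peak heights of the classes were in the same order. The median height percentile of member peaks was 61.5, 60.7 and 61.2 in no dox replicates 1, 2 and 3 and 52.8, 54.4 and 84.0 in the +dox replicates. Replicates 1 and 2 with dox lay below every no dox library and replicate 3 above, so that the group means of 61.1 ± 0.407 and 63.7 ± 17.6 (SD, n = 3 each) overlapped (two-sided exact permutation test, p = 1, adjusted p = 1). Without +dox replicate 3 the difference was -6.94 in place of 2.64, and it was -3.77 over equally long lists.

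Member peaks exceeded those of regions with neither motif by 15.8 ± 6.71 percentile points and those with TGACTCA alone by 7.55 ± 3.72 (SD, n = 6), each in 6 of 6 libraries. Both gave an exact two-sided sign-flip permutation p of 0.031, or 0.0812 after adjustment over the 13 tests. Against regions with both motifs the difference was -3.31 ± 2.68 (exact sign-flip permutation p = 0.125, adjusted p = 0.203), and it was -0.321 among regions of 500 to 1500 bp. The median peak width of members minus that of regions with both motifs was -62.5 bp ± 66.6 (SD, n = 6; exact sign-flip permutation p = 0.125, adjusted p = 0.203), but the sign turned to 16.7 bp when the motifs were searched within 200 bp of the maximum.

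Few members were called in every library of 1 group and in none of the other. A total of 69 members had a call in every +dox library and in no library without dox, which is 2.87% of members, beside a background of 3.38% over all 18774 kept regions. In the other direction there were 0 members, beside 5 of all kept regions (0.0266%). With lists of equal length, 10 of 1351 members had the first pattern and 4 the second, beside 0.544% and 0.294% of all regions kept. The members' shares were thus near the background in either direction. Of the 69, 52 (75.4%, 64.04 to 84.0) had CAGCTG within 100 bp of the maximum, and their median merged width was 900 bp. Over all members the share was 64.1% at a median width of 1300 bp. A narrower interval leaves less room for a distant site, and the shares were not matched for width.

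**Figure D4:**
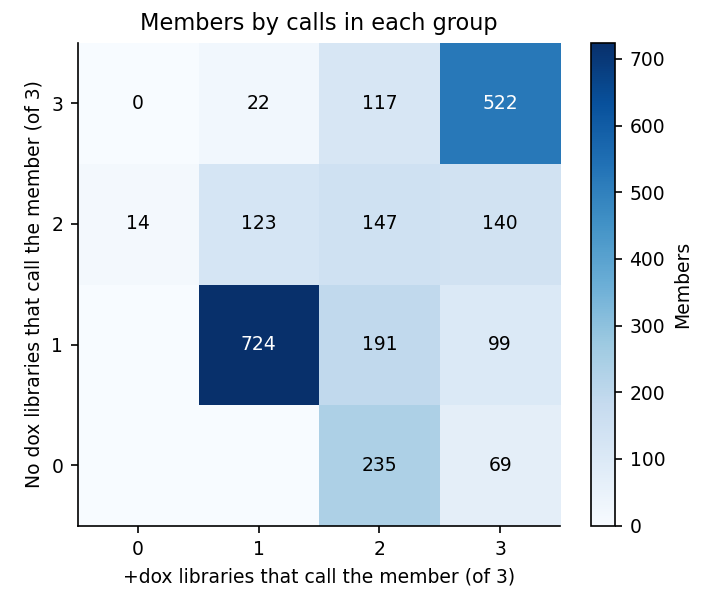
Number of members by how many of the 3 no dox libraries (vertical axis) and how many of the 3 +dox libraries (horizontal axis) call them, with darker blue for more members. The fullest cells are 724 members called in 1 library of each group and 522 called in all 6, and cells left blank would have fewer than 2 calls. These 2 cells hold 30.1% and 21.7% of members, beside 30.6% and 23.2% of the other distal regions and 21.4% and 25.8% of all kept regions.

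The 5 strongest of these 69 by mean height percentile in the +dox lists were of moderate height. They lay near Ubash3b, a phosphatase of receptor signalling, Cpn2, a subunit of carboxypeptidase N, Epb41l4a, a band 4.1 family member, Prok2, the ligand prokineticin 2, and Tmcc3. The member in an intron of Ubash3b, chr9:41054051-41054950, had maximum signals of 13.9, 11.1 and 4.73 CPM in +dox replicates 1, 2 and 3, which are the percentiles 68.9, 69.4 and 83.1. That near Tmcc3, chr10:94458501-94459400, had the percentiles 49.3, 65.7 and 86.3. All 5 were lowest in CPM and highest in percentile in replicate 3, the library with the longest list.

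The members called in all 6 libraries were compared for the height of their signal. One fit with limma covered the 4838 regions called in all 6 libraries, of which 522 were members, on log2 maximum signal with each library centred on its median. At an adjusted p under 0.05, 0 members were called in either direction, beside 0% of all regions tested. At an unadjusted p under 0.05 there were 19 of the 522 members (7 higher and 12 lower with dox), beside 124 of 4838 regions (2.56%). The smallest adjusted p of a member was 0.984. With the replicate number as a block 0 members were called, and the smallest adjusted p was 0.124. In that setting 95 of the 522 members had an unadjusted p under 0.05, beside 627 of 4838 regions (13.0%). The members' share was above that of all regions in both settings, a difference that was not tested. The median log2 change of the members was -0.17, beside -0.016 over all 4838 regions, and 195 of 522 were positive. Without centring these medians were 0.75 and 0.91, so direction here is relative to the typical region.

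Regions with both motifs gave nearly the same values as members in this fit. Their median log2 change was -0.14 with 246 of 657 positive, and it was 0.024 with 1869 of 3567 positive among the regions that are not distal. Distal regions with TGACTCA alone had a median of -0.21 with 23 of 51 positive. Those with neither motif went the other way, at 0.13 with 25 of 41 positive. No set of regions was tested as a set. When +dox replicate 1 was left out the members' median was -0.0030. In that setting 9 of the 522 members had an unadjusted p under 0.05, beside 119 of 4838 regions, a lower share. Without +dox replicate 3 the members' median was -0.30. There 124 of the 522 members (22 of them higher with dox) had an unadjusted p under 0.05 in place of 19, beside 807 of 4838 regions (16.7%).

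The 10 strongest members called in all 6 libraries were at the 96.6th percentile or higher in each list. The strongest lay in an intron of Mical2, a monooxygenase that acts on actin, at chr7:112335301-112337800. Its maximum signal was 102, 107 and 40.7 CPM in no dox replicates 1, 2 and 3 and 204, 128 and 69.2 CPM in the +dox replicates. The libraries numbered 3 were the lowest of each group, and the percentiles were between 99.3 and 99.8 throughout. A member in an intron of Sept9, which encodes a cytoskeletal septin, at chr11:117294651-117297700, had 73.5, 99.6 and 52.7 CPM without dox and 179, 149 and 83.6 CPM with dox, with a centred log2 change of -0.085 that did not pass the test.

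Others of the 10 lay at genes with roles in muscle or its progenitors. That in an intron of Atoh8, a basic helix-loop-helix factor, at chr6:72215301-72219500, had 99.6, 98.9 and 29.1 CPM without dox and 322, 179 and 79.8 CPM with dox. An intergenic member 16536 bp from the start of Fgfr4, a fibroblast growth factor receptor of muscle progenitors, at chr13:55168351-55170000, had 71.2, 77.7 and 25.3 CPM without dox and 236, 134 and 60.02 CPM with dox. In an intron of Vgll4, a cofactor of TEAD factors, chr6:114888301-114889950 had 80.0, 82.2 and 18.4 CPM without dox and 260, 154 and 56.5 CPM with dox. Replicates 1 and 2 with dox lay above all no dox libraries at each of these, and replicate 3 with dox fell between the no dox libraries. CPM values here and below are not centred. After centring the fitted log2 changes of the 10 ran from -0.25 at Mical2 to 0.90 at Gpc1, a glypican of the cell surface, and none passed the test.

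The other members of the 10 lay near Agap1, an Arf GTPase-activating protein, Tpcn1, an endolysosomal cation channel, Gse1 and Hmgb1, a chromatin protein. Their percentiles were between 97.0 and 99.8. In 6 of the 10 CAGCTG lay within 50 bp of the maximum, at distances from 0 to 40 bp, and in Vgll4 it lay 445 bp away.

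**Figure D5:**
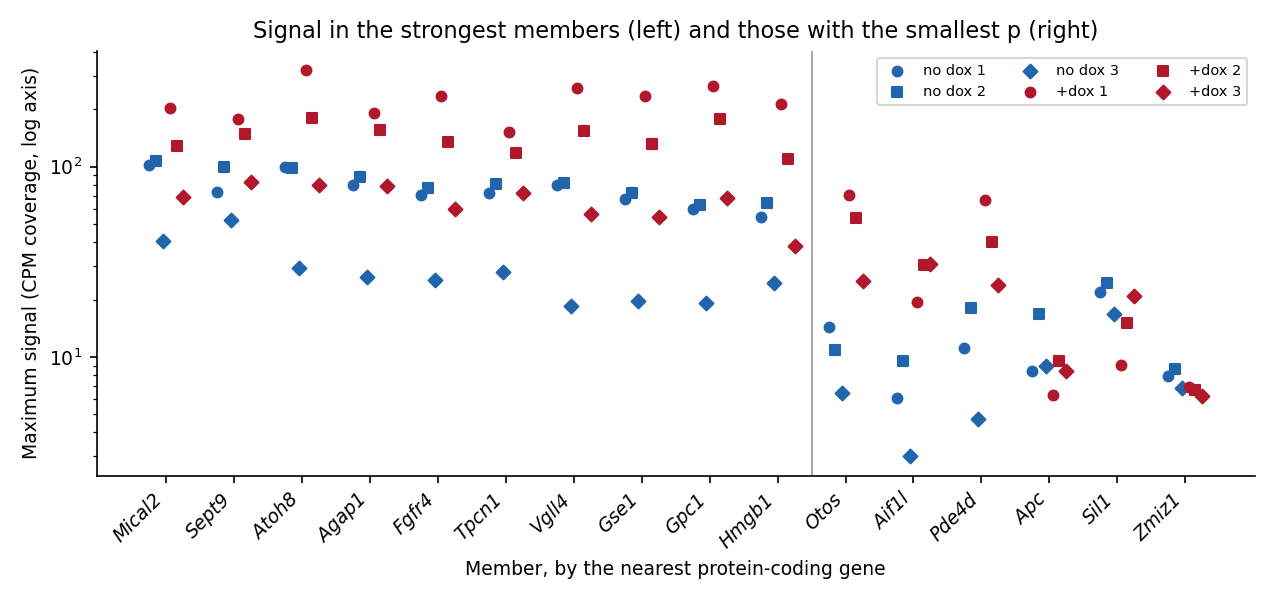
Maximum signal in CPM (vertical log axis) of the 10 strongest members called in all 6 libraries (left of the grey line) and of the 3 members with the smallest unadjusted p in each direction (right), named by the closest protein-coding gene on the horizontal axis. Blue marks no dox and red +dox, and circles, squares and diamonds are replicates 1, 2 and 3, with replicate 3 lowest of its group at each of the 10.

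Since no member passed, the 3 with the smallest unadjusted p in each direction are given as values. Nearest Otos, an inner ear protein gene, chr1:92698201-92700200 had 14.4, 10.8 and 6.43 CPM without dox and 71.1, 53.9 and 24.9 CPM with dox, and the groups did not overlap. Its log2 change was 1.26 ± 0.40 (SE; adjusted p = 0.984 in limma, which is fitted across all regions). A member in an intron of Lamc3 and closest to Aif1l, an actin-binding protein gene, at chr2:31934501-31936150, had 6.05, 9.48 and 3.00 CPM without dox and 19.5, 30.3 and 30.6 CPM with dox, a log2 change of 1.31 ± 0.46 (adjusted p = 0.984 in limma). In an intron of Pde4d, a phosphodiesterase that breaks down cyclic AMP, the log2 change was 1.10 ± 0.43, again with an adjusted p of 0.984.

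On the lower side the members were in introns of Apc, a brake on Wnt signalling, and of Sil1, an exchange factor of the endoplasmic reticulum, and 232298 bp from Zmiz1, a transcriptional coregulator. Their log2 changes were -1.37 ± 0.44, -1.48 ± 0.48 and -1.15 ± 0.38, with an adjusted p of 0.984 each in limma. At Apc the signal was 8.38, 16.7 and 9.0 CPM without dox and 6.28, 9.45 and 8.47 CPM with dox, so that the groups overlapped before centring. With the replicate block the adjusted p in limma ran from 0.156 at Otos to 0.204 at Zmiz1 over the members named in both directions. The lowest in any setting was 0.149 in limma, at Sil1 with the libraries numbered 1 and 2.

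Members were spread over many genes. The closest protein-coding start belonged to 1661 genes, 7.58% of the 21924 annotated, and 1211 of these had a single member. In 385 members the centre lay inside a protein-coding gene other than the closest. The genes with the most members were Bcor, a corepressor on the X chromosome, with 12, Ier2, an immediate early gene, with 10, Col4a1, a basement membrane collagen, and Zmiz1 with 8 each, and Cacna1a, a calcium channel gene, with 7.

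These clusters differed in how firmly they were called. At Zmiz1 6 of 8 members were called in all 6 libraries over a span of 503 kb, with mean height percentiles from 51.5 to 98.7. The highest, chr14:25359301-25361350, had 82.8, 112 and 57.2 CPM without dox and 46.7, 134 and 82.9 CPM with dox, and its centred log2 change of -0.94 did not pass the test. At Bcor 0 of 12 members were called in all 6 libraries, the median member was called in 2, and mean height percentiles ran from 15.9 to 72.1 over 621 kb. At Col4a1 3 of 8 were called in all 6, among them chr8:11381601-11383750 in an intron of the neighbouring collagen gene Col4a2, with 34.9, 46.5 and 25.1 CPM without dox and 71.1, 90.6 and 71.2 CPM with dox, and a centred log2 change of 0.24 that did not pass the test.

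Genes of muscle and of related pathways were taken from 12 lists, each set beside the 7.58% of all protein-coding genes with a member. The other distal regions were closest to 2090 protein-coding genes. Of 24 myogenic transcription factor genes 9 (37.5%) had a member, among them Runx1 with 5 members, Mef2a with 4, Pax3 and Tead1 with 2 each, and Eya4 and Sox6 with 1 each. Pax3 encodes a factor of muscle progenitors. Other distal regions were closest to 9 genes of the same list, with 24 regions. Of the 18 members of the list 3 were called in all 6 libraries. The member chr7:67461601-67463200, 89543 bp from Mef2a, had 11.6, 7.23 and 4.29 CPM without dox and 20.2, 23.9 and 6.97 CPM with dox, and a centred log2 change of 0.15 that did not pass the test. Myod1 and Myog had none.

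Among 17 genes of E-proteins, Id proteins and E-box repressors, 7 (41.2%) had a member, and 7 had another distal region. These were Tcf12 and Tcf4, which encode dimer partners of MyoD1, the inhibitor gene Id2, and Hes1, Hey1, Twist2 and Zeb1, which encode repressors. Of their 11 members 5 were called in all 6 libraries. A member 214862 bp from Zeb1 had 29.3, 29.4 and 13.7 CPM without dox and 39.1, 38.4 and 23.2 CPM with dox, while its centred log2 change was -0.41 ± 0.35 (SE) and did not pass the test.

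Contractile and membrane genes had members too. Of 46 sarcomere genes 6 (13.04%) had 8 members, at Des, Ldb3, Myh2, Myom1, Myom2 and Tpm1. The strongest, chr1:75343501-75345800, lay 15678 bp from Des, the muscle intermediate filament gene, at percentiles between 92.4 and 99.6, with 27.0, 38.4 and 34.7 CPM without dox and 41.1, 51.7 and 58.5 CPM with dox, while its centred log2 change was -0.33 ± 0.42 (SE) and did not pass the test. Of 20 excitation-contraction coupling genes 6 had 7 members, 0 of them called in all 6 libraries. A member in an intron of Jph2 had 6.52 and 5.87 CPM in no dox replicates 1 and 2, no call in replicate 3, and 46.0, 24.5 and 12.2 CPM with dox, or percentiles of 61.5 and 64.3 without dox and from 88.7 to 94.3 with dox.

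The Cacng1 member, near a calcium channel subunit gene of muscle, was alike, with 6.98 and 7.23 CPM in no dox replicates 1 and 2, no call in replicate 3, and 27.2, 24.5 and 10.96 CPM with dox. The member in an intron of Srl overlapped between the groups, with no call in no dox replicate 1. It had 8.13 and 2.57 CPM in no dox replicates 2 and 3, and 14.6, 11.7 and 7.47 CPM with dox. None of these members could enter the fit, since a region without a call has no value in that library. Of 12 neuromuscular junction genes only Musk had a member, and of 15 dystrophin complex genes Dag1, Sspn and Utrn had 1 each, called in 2 or 3 libraries.

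Of 30 fusion and adhesion genes 6 had 12 members, with 3 each at Cadm1 and Dysf, 2 each at Cdh13 and Myof, and 1 each at Ncam1 and Vcam1. Other distal regions lay closest to 10 of these genes, with 20 regions. The Myof member shown above, in an intron, had 11.2, 19.0 and 4.71 CPM without dox and 27.9, 23.4 and 19.2 CPM with dox, and the groups did not overlap, while its centred log2 change of 0.29 did not pass the test. A member in an intron of Cadm1, which encodes a cell adhesion molecule, had 4.19, 8.58 and 11.1 CPM without dox and 6.28, 5.56 and 9.09 CPM with dox, and its centred log2 change of -1.04 did not pass the test.

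Signalling genes were also near members. Of 37 growth factor and Notch signalling genes 14 (37.8%) had 27 members, 5 of them at Notch1, a receptor that holds progenitors undifferentiated, and 3 each at Smad3, Smad7 and Tgfb2 of the TGF-beta pathway. As many of these genes, 14, had other distal regions (31). A member in an intron of Smad3, chr9:63701201-63703850, had 22.8, 32.5 and 15.0 CPM without dox and 73.9, 57.8 and 34.2 CPM with dox, and a centred log2 change of 0.31 that did not pass the test. Of 14 cell-cycle exit genes 4 (28.6%) had 11 members, 5 at Ccnd1, the cyclin D1 gene, and 4 at Gadd45g. Of 28 collagen and matrix genes 7 had 16 members, beside 11 genes with 38 other distal regions.

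Of 13 genes in a list of AP-1 factors and their relatives, Fos had 4 members and Maff had 3, all without the AP-1 element by the rule. Maff belongs to the MAF family and not to FOS or JUN. Near Fos, chr12:85496851-85498800 had percentiles between 96.4 and 99.3 in the 6 libraries, and chr12:85454701-85456250 between 96.5 and 98.7. Another, chr12:85485201-85486750, was called in 4 libraries, at percentiles between 35.5 and 54.0. Of the 7 members of this list 2 were called in all 6 libraries. The median of their mean height percentiles was 40.7 over the 7, beside 56.4 over all members. Of 14 neuronal genes, a list for another lineage, only Rbfox3 had members (2), and its share of 7.14% lay beside the 7.58% of all genes. In the fit 0 members of any list were called. The lists were chosen with earlier results of these data known, and whether gene length or spacing sets these shares was not tested.

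The likeness of libraries over members depended on the pair. Over the 522 members called in all 6 libraries, Pearson r of log2 maximum signal was between 0.685 and 0.894 for the 6 pairs among libraries numbered 1 and 2, 0.821 for the pair numbered 3, and between 0.356 and 0.692 for the 8 mixed pairs. These are correlations across regions of the same libraries and describe likeness only.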

How the data were processed

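CUT and RUN with an anti-Flag antibody had been performed in C2C12 cells, 3 libraries without and 3 with dox. Per the study's methods, the authors ran the nf-core/cutandrun pipeline on mm10, removed blacklisted regions, scaled coverage to CPM and called peaks in each library alone with SEACR in relaxed mode. A control library or numeric threshold is not given in the sources used here. Each deposited peak list holds the interval, its total signal and its maximum signal (coverage in CPM, with no spike-in scale), and the stretch with the maximum. The maximum signals were whole multiples of a step, within 0.05 of a step, in 100% of peaks, which gave the depth of each library, from 2868000 to 8030000 alignments. The precision of a low peak is limited by these depths. The labels call the libraries biological replicates.

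Peaks were merged and classed with GENCODE vM21 basic on the GRCm38 sequence, which is the assembly behind mm10 and from which all sequences were read. Shares were tested between groups by exact permutation of the libraries, and between classes by exact sign flips over the 6 libraries, both two-sided, in 1 family of 13 tests with Benjamini-Hochberg adjustment, and signal with limma 3.58.1 in R 4.3.3 (no pseudocount, trend in eBayes). Wilson intervals are at 95%. The added test of height by site number forms a family of 2. Merging, the exact tests and the fit were checked on simulated data. The members, gene lists and tests were chosen with earlier results of these data known. Regions named were the 10 strongest called in all 6 libraries, the 5 strongest called in every library of 1 group alone, up to 5 called by limma in each direction or else the 3 with the smallest p, up to 3 for each gene list, and the strongest at each of the 5 genes with the most members. Other regions are named as chosen after their values were seen. Some genes of the lists are not reported here.

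The main tests between groups and the main fit did not pair the libraries, and the replicate numbers entered only as a block in an alternative setting. Over the 4838 regions called in all 6, the deviations from group means correlated within each number, at r = 0.485, 0.267 and 0.628 for numbers 1, 2 and 3. Across numbers, no dox 1 with +dox 2 had 0.265 and no dox 2 with +dox 1 had 0.219, so number 2 was no more alike than across numbers 1 and 2, and the other 4 pairs were below 0. The single mitochondrial region was left out of motif counts over all regions. Alternatives left out each library, used the libraries numbered 1 and 2, equal list lengths, other call, distance, exon, motif, width, height and window rules, and other scalings. Python 3.11.15, numpy 2.4.6, pandas 2.3.3, scipy 1.17.1, pysam 0.24.0 and matplotlib 3.10.9 were used.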

Additional observations from a re-analysis of the deposited data

How the results depend on the processing

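The number of members was 1381 with the libraries numbered 1 and 2, 1351 with lists of equal length, 1430 when 3 calls were asked for and 1448 beyond 20 kb, and ran from 1523 (without +dox replicate 3) to 2373 when each library was left out. Leaving out each library gave -4.69 to -3.49 points for the share called against regions with both motifs, 8.32 to 10.8 against neither and 5.82 to 8.41 against AP-1 alone, height differences of 6.28 to 11.8 against AP-1 alone, 13.8 to 17.4 against neither and -6.94 to 8.53 for dox, 5.86 to 7.62 points for CAGCTG at the maximum against both motifs (1.36 to 10.4 for dox), and 12.9 to 13.6 and 3.70 to 6.41 for the steps with site number. With 5 libraries the sign-flip test cannot go under 0.0625, nor with 4 under 0.125, so those p-values say nothing about stability.

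With the libraries numbered 1 and 2 the members' share of distal calls with dox differed by -0.281, median height by -5.76 and the members' change against other distal regions by -0.964. The differences between classes were then -3.25 (share called, both motifs), 7.23 (neither), 9.26 (height, AP-1 alone), 14.6 (height, neither) and 7.66 (CAGCTG at the maximum), and the steps with site number 12.7 and 5.35. With lists of equal length the values were -3.77 for height with dox, -1.13 and 10.7 for the share called against both motifs and AP-1 alone, -0.248 for the members' change against other distal regions and 5.12 for the second step. With 3 calls asked for, the share called differed by -2.66 from both motifs and 7.06 from neither. With motifs within 200 bp of the maximum CAGCTG at the maximum differed by 0.615 and width by 16.7 bp. Height by total signal gave -6.43 against both motifs. Among regions of 500 to 1500 bp the share called differed by -2.19 from both motifs and height by 5.53 from AP-1 alone. The first step was 5.36 in members called in all 6 libraries and the second 1.27 with a 50-bp window. Without centring the median log2 change of members was 0.75. Apart from these, the values kept their direction and their side of the threshold, as in 273 of 346 alternatives computed, and the causes of the changes were not tested.

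With the replicate block the change in share called was 12.4 (exact sign-flip permutation p = 0.25, the smallest that 3 pairs allow), limma called 0 members and 1 of the 4838 regions, and the block changed no other call. The 6 libraries, with unequal depth and list length and no spike-in, limit what the absence of a call can show.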
